A study of Mus musculus with 24 samples.

Results

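The genes described here are 50 genes of the cell division cycle, among the 39017 genes of the deposited count tables. They were chosen by function and mapped from symbol to Ensembl gene identifier. They comprise 16 DNA replication genes, 5 regulators of the step from G1 into S phase, 26 genes of G2 and mitosis, and 3 inhibitors of cyclin-dependent kinases (Cdk). All 50 symbols matched an identifier. The replication members encode the helicase ring (Mcm2 to Mcm7), its loading and activation factors (Cdc6, Cdt1, Mcm10, Gins1 and Gins2), the clamp (Pcna), enzymes of nucleotide supply (Rrm1, Rrm2 and Tyms) and a histone mRNA factor (Slbp). The mitotic members encode cyclins and kinases (Ccna2, Ccnb1, Ccnb2, Cdk1, Plk1, Aurka, Aurkb, Bub1, Bub1b and Ttk), motors and spindle or kinetochore proteins (among them Kif11, Kif23, Cenpe, Cenpf, Ndc80, Tpx2 and Hmmr), factors of protein destruction and its checkpoint (Cdc20, Ube2c and Mad2l1), and the chromosome proteins Mki67, Top2a and Birc5. Each gene was followed across 24 RNA-seq libraries from mouse cerebral cortex at embryonic stage E15.5.

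Cells had been sorted into 3 populations: PAX6+ cells, labelled radial glia; TBR2+ cells, labelled intermediate progenitors; and PAX6-TBR2- cells, labelled neurons. Each population was taken from 2 genotypes, with 4 libraries per population and genotype. The control (WT) carried Prdm16 flox/flox with no Cre listed, and the mutant (KO) carried Emx1Ires-Cre; Prdm16flox/flox. Both genotypes therefore shared the floxed Prdm16 alleles, and the Cre insertion at Emx1 was present in the mutant alone, so that effects of Cre and of Prdm16 loss cannot be told apart. Emx1-driven Cre acts in the progenitors of the dorsal telencephalon and their descendants, and interneurons that migrate in from the ventral telencephalon do not derive from that lineage. Each population also came from a library set of its own, as the library names show, so that population and library set cannot be told apart. Libraries are described as biological replicates, but nothing says that each came from a separate embryo, so p-values measure the spread between libraries.

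In the cell cycle, cyclin D with Cdk4 or Cdk6, followed by cyclin E with Cdk2, releases E2F factors, which switch on genes for origin licensing, nucleotide supply and fork movement. Genes for chromosome condensation, the spindle and the mitotic checkpoint follow in G2 and mitosis, many of them held down in resting cells by the DREAM complex acting at the cell cycle homology region (CHR) of their promoters. The Cip/Kip proteins, encoded by Cdkn1a, Cdkn1b and Cdkn1c, bind and inhibit Cdk complexes. In the embryonic cortex, radial glia divide at the ventricular surface, intermediate progenitors divide away from it for a limited number of cycles, and neurons have left the cycle.

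Promoter sequence is shown first, because the mitotic and the replication members are known to be read by different factors. The part of promoter elements in the members' levels was not tested. RefSeq (GRCm38.p6) promoter windows, from 250 bases before to 50 bases after an annotated start, were found for 39 of the 50 members. The elements searched, on both strands, were the CHR, written TTTGAA or TTCGAA, and the E2F site, written TTCCCGC or TTGGCGC. In the printed stretches no CHR match shares bases with an E2F match. The 170 bases before the start are printed 5′ to 3′ on the gene's strand for 6 mitotic and 4 replication members, picked after the matches were seen as clear examples of each class. Capitals mark the matches, and a match on the other strand appears as its complement (TTCAAA for a CHR, GCGCCAA or GCGGGAA for an E2F site). For the mitotic members the intervals on GRCm38 are chr10:69352913-69353082 (Cdk1, minus strand), chr19:37376212-37376381 (Kif11, plus), chr2:164769759-164769928 (Ube2c, plus), chr4:118437344-118437513 (Cdc20, minus), chr11:99024190-99024359 (Top2a, minus) and chr7:135716380-135716549 (Mki67, minus).
Cdk1: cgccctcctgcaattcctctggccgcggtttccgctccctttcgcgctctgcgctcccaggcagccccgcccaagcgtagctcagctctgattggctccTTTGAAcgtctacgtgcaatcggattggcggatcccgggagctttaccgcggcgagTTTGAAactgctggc
Kif11: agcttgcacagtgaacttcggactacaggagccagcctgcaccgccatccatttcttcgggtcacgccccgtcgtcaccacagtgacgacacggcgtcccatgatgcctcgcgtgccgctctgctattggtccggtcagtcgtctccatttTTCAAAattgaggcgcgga
Ube2c: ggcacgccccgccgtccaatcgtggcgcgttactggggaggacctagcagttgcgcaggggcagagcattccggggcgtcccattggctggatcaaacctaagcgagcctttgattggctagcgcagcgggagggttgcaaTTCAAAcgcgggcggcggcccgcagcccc
Cdc20: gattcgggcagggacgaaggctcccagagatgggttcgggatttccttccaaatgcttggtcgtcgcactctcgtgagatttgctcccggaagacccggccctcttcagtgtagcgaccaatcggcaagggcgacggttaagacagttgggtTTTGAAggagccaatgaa
Top2a: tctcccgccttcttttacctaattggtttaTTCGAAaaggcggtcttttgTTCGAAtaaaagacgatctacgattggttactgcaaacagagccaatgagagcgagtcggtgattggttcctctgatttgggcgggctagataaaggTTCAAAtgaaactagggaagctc
Mki67: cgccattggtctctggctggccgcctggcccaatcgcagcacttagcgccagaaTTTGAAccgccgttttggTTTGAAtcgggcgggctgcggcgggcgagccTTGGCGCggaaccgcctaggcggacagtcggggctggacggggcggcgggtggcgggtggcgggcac

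For the replication members the intervals are chr1:128359706-128359875 (Mcm6, minus strand), chr7:102441525-102441694 (Rrm1, plus), chr8:75109339-75109508 (Mcm5, plus) and chr11:98907981-98908150 (Cdc6, plus). The Cdc6 stretch precedes the RefSeq start but lies inside the annotated Ensembl gene, which begins upstream of it at base 98907801. The ends of the Cdk1, Cdc20 and Ube2c stretches nearest the start also lie inside the Ensembl gene. Those genes begin at bases 69352938, 118437352 and 164769898.
Mcm6: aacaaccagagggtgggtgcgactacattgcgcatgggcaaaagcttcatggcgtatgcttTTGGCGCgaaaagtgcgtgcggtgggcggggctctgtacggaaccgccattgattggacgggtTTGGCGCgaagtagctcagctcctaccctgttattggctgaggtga
Rrm1: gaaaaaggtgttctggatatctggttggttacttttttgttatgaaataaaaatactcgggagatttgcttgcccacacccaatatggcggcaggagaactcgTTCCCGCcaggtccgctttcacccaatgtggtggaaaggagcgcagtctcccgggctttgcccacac
Mcm5: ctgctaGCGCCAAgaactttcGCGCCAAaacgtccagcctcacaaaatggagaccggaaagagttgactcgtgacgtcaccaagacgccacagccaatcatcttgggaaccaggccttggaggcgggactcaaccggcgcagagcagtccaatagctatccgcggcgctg
Cdc6: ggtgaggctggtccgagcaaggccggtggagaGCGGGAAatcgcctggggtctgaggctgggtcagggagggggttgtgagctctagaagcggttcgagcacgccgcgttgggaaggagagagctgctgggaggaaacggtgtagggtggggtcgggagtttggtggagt

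The CHR letters stood in the windows of 17 of 22 mitotic members (77.3%), of 2 of 13 replication members (15.4%) and of 19.2% of all 32851 windows. E2F letters stood in 3 of 22 mitotic members (13.6%), in 7 of 13 replication members (53.8%) and in 6.8% of all windows. The CCAAT box, another element common in proliferation genes, whose reverse ATTGG can share bases with TTGGCGC, was present in 17 of 22 mitotic and 10 of 13 replication windows (77.3% and 76.9%), against 37.4% of all windows. Cdk1, Top2a and Mki67 held more than 1 CHR match upstream of the start, and Cdk1 and Mki67 an E2F match as well, which in Cdk1 lies upstream of the stretch printed. In Cdk1, Kif11, Ube2c, Cdc20 and Top2a the CHR match nearest the start began 15 to 29 bases upstream of the RefSeq start. In Cdk1 and Ube2c that match lies inside the annotated Ensembl gene. A match describes letters only, and binding was not measured.

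**Figure D1:**
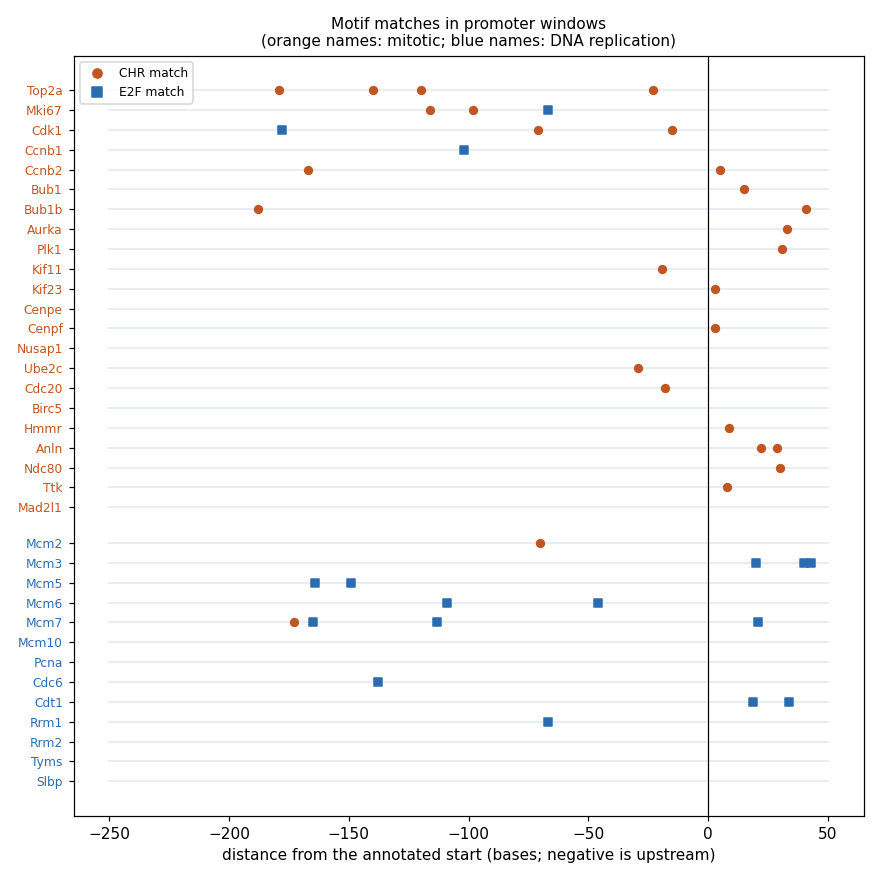
Position of CHR (circles) and E2F (squares) letter matches in the 300-base promoter windows of 22 mitotic members (orange names) and 13 replication members (blue names), in bases from the annotated start, where negative values are upstream. CHR matches lie in 17 of the 22 mitotic rows, while E2F matches lie in 7 of the 13 replication rows.

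Library totals ran from 7620760 to 12554161 counts in PAX6+, from 6402081 to 8215667 in TBR2+ and from 4948977 to 8637003 in PAX6-TBR2- libraries, except for 30027954 counts in WT PAX6-TBR2- replicate 4. Levels below are CPM, counts relative to library size, scaled by the TMM method over all 24 libraries, and values for a group are listed for replicates 1 to 4. Prdm16 itself averaged 253 ± 34.1 CPM in WT and 187 ± 27.2 in KO PAX6+ cells (SD, n = 4; log2 fold change -0.43, SE 0.12, edgeR adjusted p = 0.058), and 55.6 ± 15.98 and 52.3 ± 7.96 CPM in TBR2+ cells. A count over the whole gene also holds reads from exons that were not deleted, so it is a weak check of the genotype labels. Eomes, which encodes TBR2, averaged 931 CPM in WT TBR2+ cells against 77.7 in WT PAX6+ and 42.1 in WT PAX6-TBR2- cells. Pax6 averaged 435, 242 and 30.0 CPM in WT PAX6+, TBR2+ and PAX6-TBR2- cells, so the TBR2+ cells still contained Pax6 RNA. A list of 12 neuron markers summed to means of 439, 7432 and 9669 CPM in the same order. All 12 were higher in WT TBR2+ than in WT PAX6+ cells, where 29.8% of all genes were higher. From TBR2+ to PAX6-TBR2- cells 7 of the 12 were higher and 1 lower, against 26.1% and 24.2% of all genes. The TBR2+ libraries thus held much neuron marker RNA, and its part in the members' levels there was not tested. In such bulk libraries, fewer cycling cells and less RNA per cycling cell cannot be told apart.

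The 26 mitotic members were higher in WT PAX6+ than in WT TBR2+ cells, and higher there than in WT PAX6-TBR2- cells. The replication members followed the same order over a narrower range. Summed over 16 genes, the replication members reached 1426 ± 174.5 CPM in WT PAX6+, 393 ± 50.8 in WT TBR2+ and 205 ± 42.7 in WT PAX6-TBR2- cells (SD, n = 4). Summed over 26 genes, the mitotic members reached 6323 ± 472 CPM, 1280 ± 425 and 232 ± 61.7 in the same order. The mitotic sum was thus 4.94 times higher in PAX6+ than in TBR2+ cells and 5.51 times higher in TBR2+ than in PAX6-TBR2- cells, while the replication sum differed 3.63 and 1.91 times. These are ratios of the group means. As a difference of the mean log2 sums, which weights the libraries differently, the PAX6+ over TBR2+ ratio grew with plain CPM in place of TMM scaling from 2.38 to 2.89 for the mitotic sum and from 1.86 to 2.37 for the replication sum. The ratio of the mitotic to the replication sum within a library ranged from 3.64 to 5.26 in WT PAX6+, from 2.00 to 3.75 in WT TBR2+ and from 1.06 to 1.19 in WT PAX6-TBR2- libraries. The PAX6-TBR2- range did not touch either of the others.

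**Figure D2:**
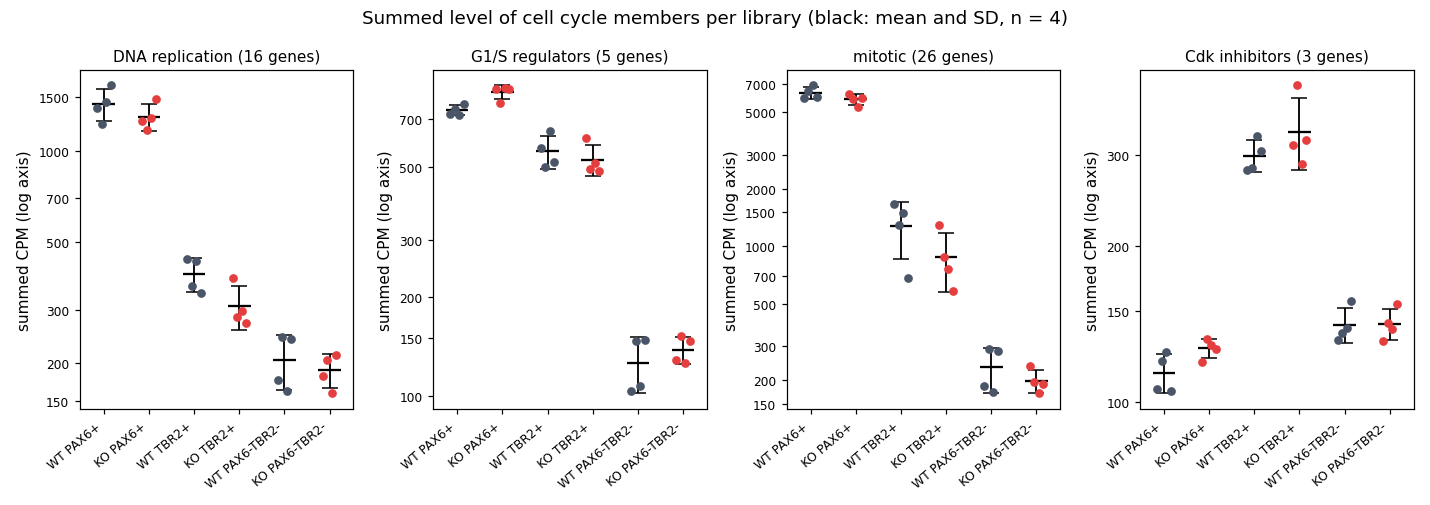
Summed CPM of the members of each class in each library (points, grey for WT and red for KO; log axes), with the mean and SD of 4 libraries in black. The replication and mitotic sums step down from PAX6+ to TBR2+ to PAX6-TBR2- cells with no overlap among WT groups, and the Cdk inhibitor sum is highest in TBR2+ cells.

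Mitotic members were tested first between WT populations. All 26 were lower in WT TBR2+ than in WT PAX6+ cells, with a median log2 fold change of -2.25 and a range from -2.69 for Ccnb1, the cyclin B partner of Cdk1, to -1.42 for Aurka. Of all 14548 genes tested in that comparison, 30% were lower and 29.8% higher, with a median of -0.0128. For each of the 26, all 4 WT TBR2+ libraries lay below all 4 WT PAX6+ libraries, as did those of 29.3% of all genes tested. The 17 mitotic members with CHR letters in their window had a median of -2.27, and the 5 whose window held none a median of -2.18. From WT TBR2+ to WT PAX6-TBR2- cells, all 26 were lower again, with a median of -2.41 and a range from -3.19 for Birc5 to -1.21 for Mad2l1, where 24.2% of 13725 genes were lower and 26.1% higher. The libraries of those groups overlapped for 1 gene, Mad2l1, a subunit of the spindle checkpoint, and lay apart in this direction for 20.9% of all genes. Between WT PAX6-TBR2- and WT PAX6+ cells the median was -4.72, from -5.50 for Ccnb1 to -3.41 for Mad2l1, and 32.4% of 15102 genes were lower and 33% higher.

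Mki67, the proliferation antigen that coats mitotic chromosomes, measured 2054, 2146, 2280 and 1864 CPM in WT PAX6+ libraries. It measured 545, 426, 512 and 205 CPM in WT TBR2+ libraries and 50.0, 102, 50.7 and 86.5 CPM in WT PAX6-TBR2- libraries. The groups did not overlap, and the lowest WT TBR2+ library, replicate 4, was still above every WT PAX6-TBR2- library. Its log2 fold change was -2.27 (SE 0.24, edgeR adjusted p = 3.03e-08) from PAX6+ to TBR2+ and -2.54 (SE 0.29, edgeR adjusted p = 3.14e-07) from TBR2+ to PAX6-TBR2- cells. Top2a, the topoisomerase that untangles sister chromatids, measured 744, 821, 944 and 874 CPM in WT PAX6+, 220, 156, 209 and 90.3 in WT TBR2+ and 21.6, 35.7, 18.3 and 36.2 in WT PAX6-TBR2- libraries. Its 3 groups were likewise separate, with log2 fold changes of -2.29 (SE 0.23) and -2.57 (SE 0.29) for the same steps.

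Cdk1, the kinase that drives entry into mitosis, measured 55.8, 54.1, 60.9 and 66.9 CPM in WT PAX6+ libraries. It was at 15.7, 11.3, 11.01 and 5.57 CPM in WT TBR2+ and at 1.66, 1.35, 2.10 and 2.19 CPM in WT PAX6-TBR2- libraries, again with no overlap. The log2 fold changes were -2.41 (SE 0.22, edgeR adjusted p = 4.34e-09) and -2.50 (SE 0.34, edgeR adjusted p = 3.05e-06). Per kilobase of exon, which allows levels of different genes to be compared, Mki67 led the members in WT PAX6+ cells at 207 CPM per kb, followed by Top2a at 93.8, Ccnd2 at 68.5 and Ube2c at 64.3. In WT TBR2+ cells the order was Ccnd2 (53.2 CPM per kb), Cdkn1b (47.7), Mki67 (41.95) and Cdkn1c (38.9). In WT PAX6-TBR2- cells Cdkn1b (23.2), Cdkn1c (16.5) and Ccnd2 (10.2) stood above every mitotic member.

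Within the WT TBR2+ group, the mitotic members varied together from library to library. Replicate 4 had the lowest value of the 4 libraries for all 26 mitotic members, and replicate 1 had the highest for 22. Their sums were 1655, 1288, 1493 and 683 CPM, while the replication sums were 441, 358, 432 and 342 CPM. In WT PAX6+ libraries the mitotic sums were 5923, 6437, 6943 and 5988 CPM, a narrower relative spread. The 12 neuron markers summed to 6671, 6932, 7774 and 8350 CPM in the WT TBR2+ libraries, with replicate 4 highest, and the 12 radial glia markers to 650, 522, 517 and 448 CPM, with replicate 4 lowest. Their part in the spread of the mitotic members was not tested.

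**Figure D3:**
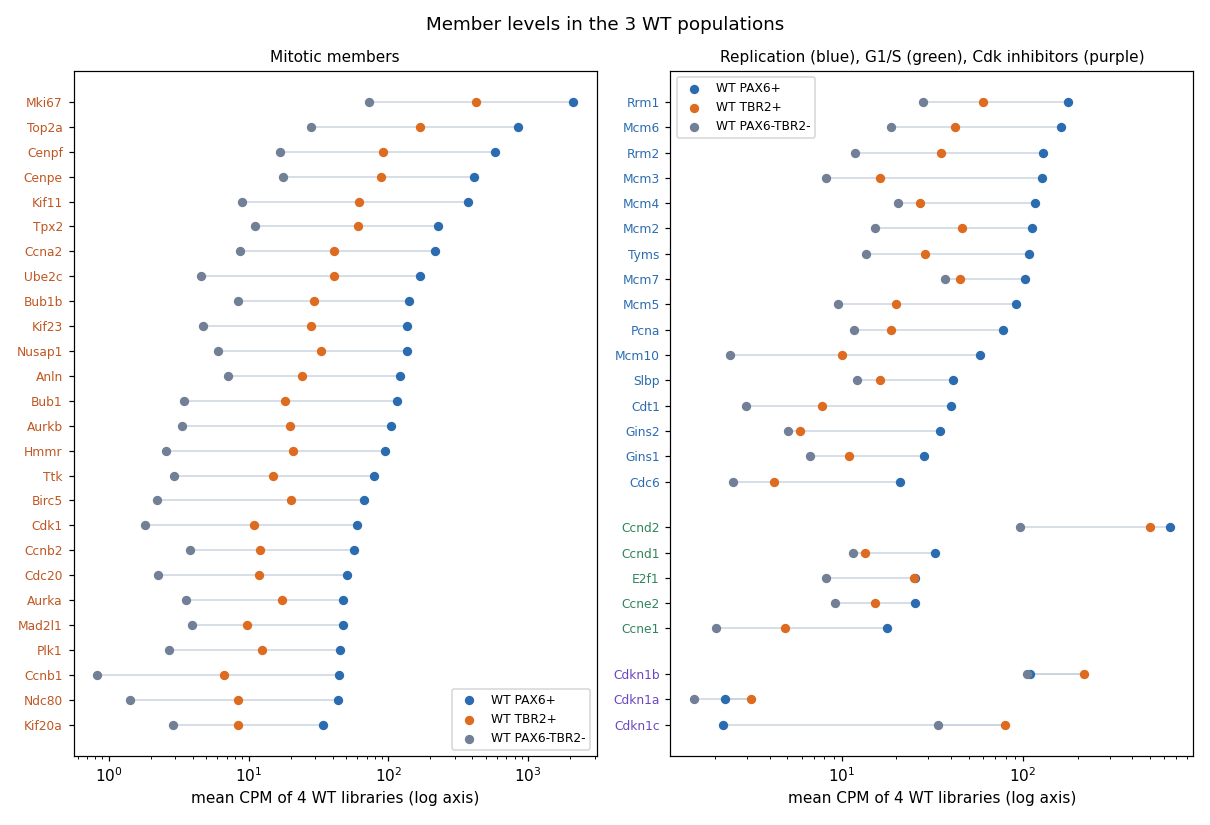
Mean CPM of each member in the 3 WT populations (n = 4 each; log axes), mitotic members on the left and the other classes on the right. Every mitotic and replication member has its highest mean in PAX6+ cells (blue) and its lowest in PAX6-TBR2- cells (grey), whereas Cdkn1b and Cdkn1c have their highest mean in TBR2+ cells (orange).

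Replication members were lower as a class at both steps, by less at the second. All 16 were lower in WT TBR2+ than in WT PAX6+ cells, with a median log2 fold change of -1.96 and a range from -2.93 for Mcm3 to -1.16 for Mcm7. From TBR2+ to PAX6-TBR2- cells 13 of 16 were lower, with a median of -0.97 and the lowest value, -1.93, for Mcm10. Gins2 (-0.18, SE 0.28), Mcm4 (-0.38, SE 0.18) and Slbp (-0.40, SE 0.20) did not pass. Gins2 is a subunit of the replicative helicase, Mcm4 a subunit of the helicase ring, and Slbp the histone mRNA stem-loop binding protein. Most of the exon bases of Gins2 (67.3%) are shared with Gse1 on the opposite strand, so its counts are uncertain. The libraries overlapped for 6 of the 16 at this step, namely Mcm3, Mcm4, Pcna, Gins2, Cdc6 and Slbp, and the other 10 lay below, against the 20.9% of all genes given above.

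Pcna, the sliding clamp of DNA polymerase, measured 71.7, 68.5, 69.8 and 98.8 CPM in WT PAX6+ libraries, with replicate 4 apart from the others. It measured 20.7, 16.01, 21.3 and 16.6 CPM in WT TBR2+ and 10.4, 16.4, 6.70 and 13.1 CPM in WT PAX6-TBR2- libraries. PAX6+ libraries stood clear of both other groups, which overlapped each other. Its log2 fold changes were -2.02 (SE 0.19, edgeR adjusted p = 4.62e-09) and -0.67 (SE 0.23, edgeR adjusted p = 0.019). The latter call was lost in 3 alternative settings. Mcm2, a helicase subunit that also carries histones, measured 116, 90.8, 114 and 130 CPM in WT PAX6+, 40.9, 48.4, 48.5 and 45.6 in WT TBR2+, and 8.29, 22.7, 11.7 and 18.5 in WT PAX6-TBR2- libraries. Its 3 groups were separate, with log2 fold changes of -1.26 (SE 0.14) and -1.55 (SE 0.21).

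Mcm5, Rrm2 and Cdc6 are described as well, since each was among the members of smallest p in a genotype comparison. Mcm5, another subunit of the helicase ring, measured 94.8, 74.2, 94.0 and 104 CPM in WT PAX6+, 25.1, 18.1, 17.1 and 18.9 in WT TBR2+, and 6.22, 12.02, 6.83 and 12.8 in WT PAX6-TBR2- libraries. Rrm2, the regulated subunit of ribonucleotide reductase, measured 117, 107, 140 and 151 CPM in WT PAX6+, 41.8, 28.1, 47.5 and 23.9 in WT TBR2+, and 9.54, 14.9, 8.54 and 14.5 in WT PAX6-TBR2- libraries. Both genes showed 3 separate groups of libraries. Cdc6, which loads the helicase at origins, measured 18.5, 16.2, 23.2 and 25.8 CPM in WT PAX6+, 4.25, 4.08, 5.69 and 2.79 in WT TBR2+, and 1.87, 2.54, 2.89 and 2.66 in WT PAX6-TBR2- libraries. Its second step was small and barely passed (log2 fold change -0.72, SE 0.29, edgeR adjusted p = 0.047). That call was lost in 12 alternative settings.

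Regulators of the G1/S step diverged from one another. Ccnd2, a D-type cyclin used by cortical progenitors, measured 628, 655, 613 and 681 CPM in WT PAX6+, 503, 451, 580 and 468 in WT TBR2+, and 75.9, 111, 79.2 and 116 in WT PAX6-TBR2- libraries. Its large step therefore lay between TBR2+ and PAX6-TBR2- cells (log2 fold change -2.38, SE 0.14, edgeR adjusted p = 4.89e-11), and its step from PAX6+ to TBR2+ cells was -0.33 (SE 0.10, edgeR adjusted p = 0.0069). Ccnd1, the related D-type cyclin, measured 34.4, 31.1, 37.7 and 27.5 CPM in WT PAX6+, 15.8, 9.47, 15.97 and 12.5 in WT TBR2+, and 10.4, 10.2, 11.96 and 13.5 in WT PAX6-TBR2- libraries. Here the step lay between PAX6+ and TBR2+ cells (-1.25, SE 0.17, edgeR adjusted p = 1.04e-06), and the latter groups overlapped (-0.20, SE 0.18, edgeR adjusted p = 0.38). Of the exon bases of Ccnd1, 23.4% are shared with LTO1 on the opposite strand.

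Ccne1, the cyclin E that partners Cdk2, measured 18.5, 17.7, 19.4 and 15.7 CPM in WT PAX6+, 5.01, 4.25, 6.42 and 3.77 in WT TBR2+, and 1.87, 2.03, 1.84 and 2.30 in WT PAX6-TBR2- libraries. It was lower at both steps (-1.84, SE 0.20, and -1.23, SE 0.26). E2f1, the founding E2F factor, measured 22.9, 22.3, 31.1 and 25.4 CPM in WT PAX6+ and 29.3, 21.7, 26.8 and 21.8 in WT TBR2+ libraries, which overlapped fully (log2 fold change 0.0040, SE 0.20, edgeR adjusted p = 0.99). In WT PAX6-TBR2- libraries E2f1 measured 5.39, 11.2, 7.23 and 8.67 CPM, below every TBR2+ library (-1.60, SE 0.22, edgeR adjusted p = 4.70e-06). Ccne2 was lower at both steps (-0.69 and -0.78), with 17.4% of its exon bases shared with Ints8.

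Of the 3 Cdk inhibitors, Cdkn1b and Cdkn1c were higher in WT TBR2+ than in WT PAX6+ cells, and Cdkn1a was not called. Cdkn1c, which encodes p57 and is imprinted, measured 1.67, 3.08, 1.89 and 2.24 CPM in WT PAX6+ libraries. It measured 80.05, 89.04, 53.05 and 94.9 CPM in WT TBR2+ and 33.0, 34.2, 27.6 and 40.1 CPM in WT PAX6-TBR2- libraries. The 3 groups were separate, and TBR2+ cells were highest; WT TBR2+ libraries all lay above WT PAX6+ libraries for 26.1% of all genes. Its log2 fold change was 5.17 (SE 0.27, edgeR adjusted p = 2.35e-13) from PAX6+ to TBR2+ and -1.22 (SE 0.19, edgeR adjusted p = 1.64e-05) from TBR2+ to PAX6-TBR2- cells.

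Cdkn1b, which encodes p27, measured 101, 115, 120 and 102 CPM in WT PAX6+, 200, 188, 272 and 209 in WT TBR2+, and 96.8, 100.4, 110.3 and 115 in WT PAX6-TBR2- libraries. It was higher in TBR2+ than in either other population, by 1.02 (SE 0.11, edgeR adjusted p = 6.82e-08) over PAX6+ cells on the log2 scale. PAX6-TBR2- and PAX6+ cells did not differ in Cdkn1b beyond their spread (-0.014, SE 0.093, edgeR adjusted p = 0.90). Cdkn1a, which encodes p21 and responds to p53, was low, at 2.98, 2.19, 2.58 and 1.32 CPM in WT PAX6+, 1.37, 6.70, 2.02 and 2.46 in WT TBR2+, and 2.28, 1.19, 1.58 and 1.08 in WT PAX6-TBR2- libraries. Its step from PAX6+ to TBR2+ did not pass (0.49, SE 0.45, edgeR adjusted p = 0.37), and that from TBR2+ to PAX6-TBR2- cells did (-1.13, SE 0.45, edgeR adjusted p = 0.041). The latter call was lost in 7 alternative settings, and the libraries of those groups overlapped.

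Other genes of the pathway were counted by class, beside 30% of all genes lower and 29.8% higher at the first step and 24.2% lower and 26.1% higher at the second. Of 40 tested genes of origin licensing and the replication fork, 39 were lower and 1, Orc4, higher in WT TBR2+ than in WT PAX6+ cells (median log2 fold change -1.69). At the next step, into PAX6-TBR2- cells, 18 of 40 were lower and 1, the origin-firing kinase gene Cdc7, higher (median -0.44). Of 63 tested genes of G2, mitosis and cytokinesis, 59 were lower and none higher at the first step (median -2.07), and 57 of 62 were lower and 1, Cenpt, higher at the second (median -1.81). Among 26 genes of G1/S control, 18 were lower and 5 higher at the first step, the higher ones being Lin37, Cdk4, Rb1, Cdc25a and Myc. Of 19 tested Cdk inhibitors and p53 targets outside the members, 10 were higher and 3 lower at the first step, with Trp53inp1 at 2.88 (SE 0.17), Sesn1 at 1.87 (SE 0.12) and the cyclin G2 gene Ccng2 at 1.48 (SE 0.15) among those higher. At the second step 12 of 16 in that class were lower and 1, Bbc3, higher. Of 35 tested replication-dependent histone genes, whose near-identical copies share reads and are therefore uncertain, 10 were lower and 3 higher at the first step, a share lower that is near that of all genes, and 18 of 25 were lower and none higher at the second.

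Genotypes were compared next, within each population. No member passed in PAX6+ cells, where edgeR called 3.64% of 14212 genes. DESeq2 and limma-voom called no member either, and 7 members had an unadjusted p under 0.05 (14.0% of the members, against 12.2% of all genes). All 26 mitotic members had a log2 fold change below 0, with a median of -0.13 and a range from -0.37 to -0.006, while the median of all genes was 0.002 and 49.6% of them were below 0. Leaving out single libraries left 21 to 26 mitotic members below 0. Replication members had a median of -0.14, with 13 of 16 below 0. The mitotic sums were 6209, 5861, 5353 and 5978 CPM in KO PAX6+ libraries, which overlapped the WT range given above. All 4 KO libraries lay below all 4 WT libraries for Aurka and Ccna2, an arrangement met by 3.55% of all genes tested in this population, and above them for Ccnd2, as for 4.89% of all genes.

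Aurka, a kinase of the spindle poles, measured 47.4, 49.4, 52.1 and 41.1 CPM in WT PAX6+ and 40.1, 37.1, 40.1 and 28.9 in KO PAX6+ libraries. Its log2 fold change was -0.37 (SE 0.13, edgeR adjusted p = 0.16), with WT replicate 4 only just above the highest KO library. Ccna2, cyclin A, which is given because the blocked test below called it, measured 212, 219, 218 and 210.4 CPM in WT and 176, 184, 174 and 195 CPM in KO PAX6+ libraries (-0.23, SE 0.09, edgeR adjusted p = 0.23). Ccnd2 measured 784, 702, 772 and 780 CPM in KO PAX6+ libraries, all above the highest WT value of 681, with a log2 fold change of 0.24 (SE 0.08, edgeR adjusted p = 0.18). Cdkn1c measured 3.41, 7.05, 3.43 and 3.06 CPM in KO PAX6+ libraries, where only the lowest overlapped the highest WT library. Its log2 fold change was 0.94 (SE 0.33, edgeR adjusted p = 0.18) at a low level.

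Replicate numbers paired the PAX6+ libraries, since WT and KO libraries of the same number deviated together from their group means in all 4 pairs. With the replicate number as a block, edgeR called 7.35% of genes and 5 members in PAX6+ cells. Aurka (-0.38, SE 0.089, edgeR adjusted p = 0.014), Ccna2 (-0.23, SE 0.063, edgeR adjusted p = 0.029) and Ube2c (-0.27, SE 0.064, edgeR adjusted p = 0.014) were lower in KO. Ccnd2 (0.24, SE 0.065, edgeR adjusted p = 0.029) and Cdkn1c (0.91, SE 0.27, edgeR adjusted p = 0.048) were higher. Ube2c, the ubiquitin-conjugating enzyme of the anaphase-promoting complex, measured 176, 168, 217 and 107 CPM in WT and 157, 132, 172 and 90.1 CPM in KO PAX6+ libraries, lower in KO within every pair. On the opposite strand, Ccna2 shares 12.5% of its exon bases with Exosc9 and Ube2c 22.8% with Tnnc2.

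The remaining named members did not pass in PAX6+ cells. In KO libraries Mki67 measured 2322, 2062, 1782 and 2000.0 CPM and Top2a 675, 727, 646 and 831 CPM, with log2 fold changes of -0.025 (SE 0.095) and -0.23 (SE 0.10). Cdk1 measured 51.5, 46.9, 57.5 and 58.9 CPM, Pcna 48.3, 69.2, 70.1 and 94.8 CPM, and Mcm2 119.6, 89.7, 116 and 99.4 CPM. These ranges overlapped those of WT, with log2 fold changes of -0.14 (SE 0.11), -0.12 (SE 0.17) and -0.08 (SE 0.12). Ccnd1 measured 28.5, 24.3, 29.2 and 25.97 CPM, Ccne1 11.2, 13.3, 16.7 and 15.9 CPM, E2f1 22.03, 21.6, 34.5 and 17.2 CPM and Cdkn1b 115, 124, 121 and 122 CPM. Of the members in this paragraph, Top2a and Ccnd1 (-0.27, SE 0.13, edgeR adjusted p = 0.41) had an unadjusted p under 0.05. Cdkn1a stayed near 1.28 to 3.96 CPM.

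Marker genes of other populations moved in the same PAX6+ comparison. Of 9 intermediate progenitor markers, 2 were lower in KO and none higher: Eomes (77.7 to 46.3 CPM, log2 fold change -0.74, SE 0.19, edgeR adjusted p = 0.036) and Insm1 (58.6 to 40.8 CPM, -0.52, SE 0.12, edgeR adjusted p = 0.017). The summed list ranged from 386 to 556 CPM in WT and from 351 to 473 in KO libraries. Of 12 radial glia markers, 2 were higher and 1 lower, and their sum ranged from 3167 to 3691 CPM in WT and from 3568 to 4200 CPM in KO libraries. Of 6 interneuron markers tested, all lay below 0 and 1, Gad2, was lower in KO, with sums of 14.99 to 36.9 CPM in WT and 11.2 to 17.7 CPM in KO libraries. The 12 neuron markers included 1 lower (Dcx) and 1 higher (Syt1). All 7 endothelial and mural markers tested lay below 0 with 1 lower (Slco1c1), and so did both meningeal markers tested with 1 lower (Col1a2) and all 4 Cajal-Retzius markers tested with none passing. Of 3 glial precursor markers tested 1 was lower (Aqp4). In WT and KO libraries respectively, the sums ranged from 15.7 to 47.03 and from 6.90 to 32.97 CPM for the endothelial and mural list, and from 33.6 to 302 and from 19.7 to 102 CPM for the Cajal-Retzius list. They ranged from 3.63 to 4.82 and from 1.23 to 3.83 CPM for the meningeal list, and from 5.89 to 10.7 and from 3.68 to 9.58 CPM for the glial precursor list. The part of these markers in the values of the cell cycle members was not tested.

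**Figure D4:**
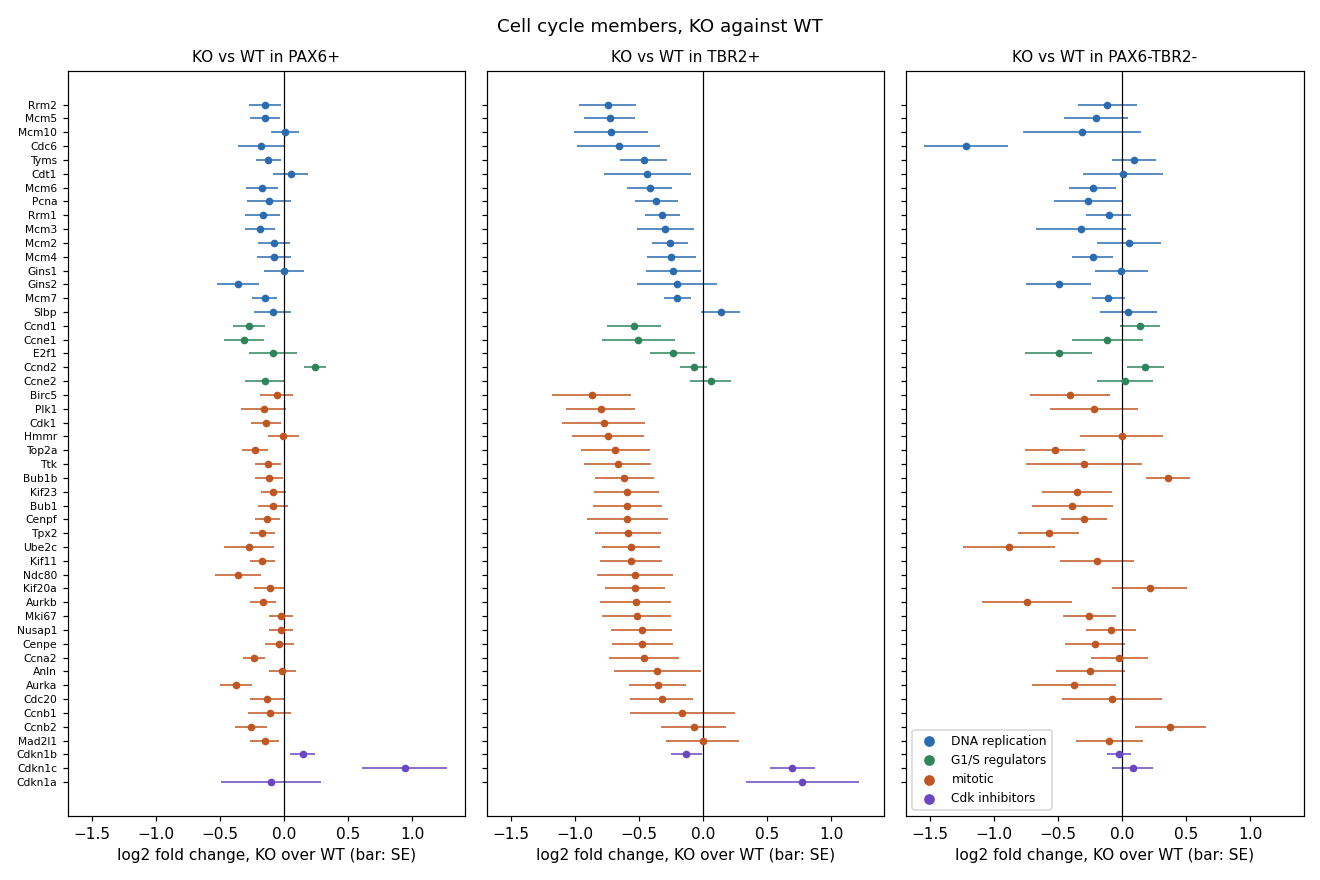
Log2 fold change of each member between KO and WT (points; bars are the SE) in PAX6+, TBR2+ and PAX6-TBR2- cells, coloured by class, with members in the same order in each panel. Mitotic members lie below 0 in 26 of 26 cases in PAX6+ and in TBR2+ cells and in 20 of 23 in PAX6-TBR2- cells, farthest from 0 in TBR2+ cells, and no member passed the test in any of the 3 panels.

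In TBR2+ cells the members' log2 fold changes between genotypes lay farthest from 0, with a median of -0.47 over the 50, against -0.13 in PAX6+ cells and -0.20 over the 46 tested in PAX6-TBR2- cells. No member passed, where edgeR called 1.76% of 12687 genes. Of the 50 members, 21 had an unadjusted p under 0.05 (42%, against 12.3% of all genes), 20 of them with a log2 fold change below 0 and 1, Cdkn1c, above 0. All 26 mitotic members had a log2 fold change below 0, with a median of -0.55 and a range from -0.87 to -0.004. The replication members had a median of -0.34, with 15 of 16 below 0, and the median of all genes was 0.0024. DESeq2 called 2.38% of genes and 3 members, with Cdkn1c higher and Mcm5 and Rrm2 lower, and limma-voom called no member. With no filter on low counts edgeR called 2.92% of 24963 genes and 20 members, of which 17 were mitotic and lower, Mcm5 and Rrm2 were lower and Cdkn1c was higher. A block on the replicate number called 720 of 12687 genes, against 223 without it, and 19 members, 14 of them mitotic. The numbers did not, however, pair these libraries by the rule used. The absence of calls in this population therefore depends on the settings.

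The mitotic sums were 1290, 874, 762 and 585 CPM in KO TBR2+ libraries, against 1655, 1288, 1493 and 683 CPM in WT. The KO mean was 31.4% lower. The groups overlapped through WT replicate 4, which lay below 3 of the KO libraries, while WT replicates 1 and 3 lay above every KO library and WT replicate 2 just under the highest. The ratio of the mitotic to the replication sum ranged from 2.16 to 3.37 in KO TBR2+ libraries, within the WT range. Within the KO group replicate 1 had the highest value for 24 of 26 mitotic members and replicate 4 the lowest for 23. Leaving out single libraries moved the median of the mitotic members between -0.79 and -0.38 and the number of members called between 0 and 6. The 6 called without KO TBR2+ replicate 1 were Bub1b, Mcm5, Plk1, Rrm2, Top2a and Tpx2, all lower. In that fit 278 of 12761 genes were called higher and 142 lower, against 139 and 84 with all libraries. There were 2 without WT TBR2+ replicate 4 (Hmmr and Rrm2, lower), where 142 of all genes were higher and 84 lower. Without KO TBR2+ replicate 3 there was 1 (Cdkn1c, higher), where 88 of all genes were higher and 54 lower.

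Cdkn1c measured 129, 168, 96.3 and 123 CPM in KO TBR2+ libraries, against 80.05, 89.04, 53.05 and 94.9 CPM in WT. All 4 KO libraries were above all 4 WT libraries, an arrangement met by 3.72% of all genes tested, with a log2 fold change of 0.70 (SE 0.18, edgeR adjusted p = 0.064, DESeq2 adjusted p = 0.0098). Mcm5 measured 16.8, 10.6, 9.86 and 10.4 CPM in KO against 17.1 to 25.1 CPM in WT TBR2+ libraries. It was the member whose KO libraries all lay below all WT libraries here, an arrangement met by 3.06% of all genes tested in this population (log2 fold change -0.73, SE 0.20, edgeR adjusted p = 0.090). Rrm2 measured 28.6, 17.6, 21.6 and 16.7 CPM in KO and overlapped WT through its replicate 1 and WT replicates 2 and 4 (-0.74, SE 0.22, edgeR adjusted p = 0.14).

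Mki67 measured 446, 265, 274 and 196 CPM in KO TBR2+ libraries (log2 fold change -0.52, SE 0.27, edgeR adjusted p = 0.47). Top2a measured 165, 97.2, 86.4 and 71.6 CPM (-0.68, SE 0.27, edgeR adjusted p = 0.29), and Cdk1 8.49, 5.96, 7.96 and 3.15 CPM (-0.78, SE 0.32, edgeR adjusted p = 0.34). For all 3 genes the KO range overlapped the WT range. Pcna measured 16.4, 14.7, 16.1 and 10.8 CPM, Mcm2 45.3, 38.6, 41.5 and 28.0 CPM, and Ccnd1 10.4, 9.61, 10.4 and 6.61 CPM, with log2 fold changes of -0.36 (SE 0.17), -0.26 (SE 0.14) and -0.54 (SE 0.21). Ccnd2, at 555, 441, 470 and 440 CPM, and Cdkn1b, at 179, 235, 186 and 196 CPM, overlapped WT (-0.074, SE 0.11, and -0.13, SE 0.12). Ccne1 measured 4.02, 2.32, 3.03 and 4.25 CPM, E2f1 27.2, 22.9, 15.54 and 18.7 CPM, and Cdkn1a 4.91, 7.45, 6.63 and 2.67 CPM, none of which passed.

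The 12 neuron markers summed to 6405, 8345, 7116 and 8651 CPM in KO TBR2+ libraries and to 6671, 6932, 7774 and 8350 CPM in WT. Within each genotype the library with the lowest mitotic sum, replicate 4, had the highest neuron marker sum. None of the 12 neuron markers passed between genotypes in this population, and none was at 0. The 12 radial glia markers summed to 734, 603, 543 and 479 CPM in KO libraries and to 650, 522, 517 and 448 CPM in WT. Of the 10 tested, 4 had a log2 fold change below 0 and none passed. Of 9 intermediate progenitor markers 1, Kif26b, was lower in KO, and their sum ranged from 2589 to 2918 CPM in WT and from 2151 to 2619 CPM in KO libraries. The 8 Cajal-Retzius markers, those of another early neuron type, summed to 195 to 632 CPM in WT and 461 to 679 CPM in KO, with none passing. The share of mitochondrial counts was 33.1%, 24.8%, 33.0% and 30.5% in WT and 30.5%, 39.3%, 33.0% and 36.6% in KO TBR2+ libraries. The part of these measures in the members' shift was not tested.

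**Figure D5:**
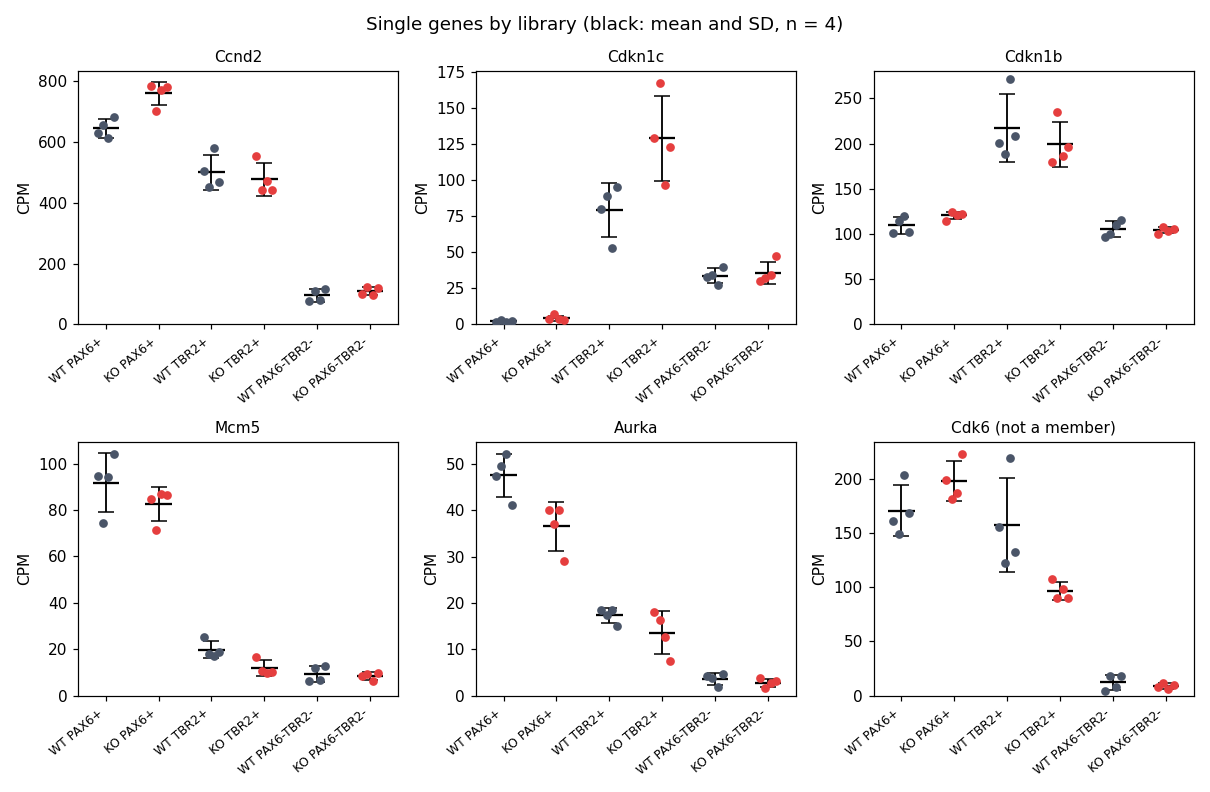
CPM by library (points, grey for WT and red for KO) of Ccnd2, Cdkn1c, Cdkn1b, Mcm5, Aurka and the non-member Cdk6, with the mean and SD of 4 libraries in black. The KO points stand above all WT points for Ccnd2 in PAX6+ cells and Cdkn1c in TBR2+ cells, and below them for Aurka in PAX6+ cells and for Mcm5 and Cdk6 in TBR2+ cells.

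Btg1 and Cdk6, from the lists of other pathway genes, passed between genotypes. Btg1, an antiproliferative gene, measured 187, 224, 171 and 206 CPM in WT and 319, 310, 251 and 301 CPM in KO PAX6+ libraries, and was higher in KO (0.59, SE 0.11, edgeR adjusted p = 0.0042). Its log2 fold change was 0.38 (SE 0.185, edgeR adjusted p = 0.43) in TBR2+ and 0.36 (SE 0.14, edgeR adjusted p = 0.67) in PAX6-TBR2- cells. The differences from its PAX6+ effect were -0.20 (SE 0.23) and -0.22 (SE 0.19), neither of which passed. Cdk6, the partner of D-type cyclins, measured 155, 122.5, 219 and 132 CPM in WT and 107, 90.4, 98.2 and 90.1 CPM in KO TBR2+ libraries, and was lower in KO (-0.71, SE 0.15, edgeR adjusted p = 0.030). In PAX6+ cells Cdk6 measured 149 to 204 CPM in WT and 182 to 223 CPM in KO libraries (0.22, SE 0.11, edgeR adjusted p = 0.45). The genotype effects on Cdk6 in those populations differed by -0.92 (SE 0.20, edgeR adjusted p = 0.033), a call that was lost in 13 of 24 alternatives, with edgeR adjusted p of up to 0.286. The Cdk6 call in TBR2+ cells was lost in 7 of 16 alternatives, with edgeR adjusted p of up to 0.13: when WT replicate 1 or 3 or KO replicate 2, 3 or 4 was left out, with reads recovered from the deposited normalized values, and in a fit of all 24 libraries.

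By class, the other pathway genes gave few calls between genotypes. In TBR2+ cells 60 of 62 tested genes of G2, mitosis and cytokinesis had a log2 fold change below 0 (median -0.41) and 33 of 40 of origin licensing and the fork (median -0.23), with none passing. In PAX6+ cells the same counts were 52 of 63 (median -0.11) and 30 of 40 (median -0.087), again with none passing. Across all genes tested, 49.6% lay below 0 in each of these populations.

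PAX6-TBR2- cells gave no call among the 46 members tested, where edgeR called 0.00774% of genes, which is 1 of 12928. An unadjusted p under 0.05 was reached by 4 members (Cdc6, Top2a, Tpx2 and Ube2c, all below 0; 8.70% of the members against 6.61% of all genes), and DESeq2 and limma-voom called none. Ccnb1, Cdk1, Ndc80 and Cdkn1a were too low to be tested. Cdk1 measured 0.466, 1.31, 1.13 and 0.752 CPM in KO libraries, below the WT values given above. These rest on 3 to 8 counts per KO and 8 to 61 counts per WT library. Among the genes tested, 2.38% had all KO below all WT libraries. Mitotic members had a median of -0.25, with 20 of 23 below 0, and replication members a median of -0.16, with 12 of 16 below 0. The mitotic median was -0.12 without WT replicate 4, with 16 below 0, and -0.37 without KO replicate 1, with 22 below 0. The mitotic sums were 186, 289, 172 and 281 CPM in WT and 236, 194, 171 and 189 CPM in KO libraries, which overlapped.

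Cdc6 measured 0.621, 1.47, 1.13 and 1.13 CPM in KO PAX6-TBR2- libraries, below all WT values of 1.87 to 2.89 CPM, an arrangement met by 2.38% of all genes tested in this population. Its log2 fold change was -1.22 (SE 0.33, edgeR adjusted p = 0.52) at a low level. Ube2c measured 5.60, 3.90, 2.89 and 6.05 CPM in WT and 4.19, 1.97, 2.90 and 1.25 CPM in KO (-0.89, SE 0.36, edgeR adjusted p = 0.70). Tpx2, an activator of Aurora A on the spindle, measured 8.29, 12.9, 7.49 and 15.51 CPM in WT and 8.69, 6.55, 6.92 and 8.27 CPM in KO (-0.57, SE 0.24, edgeR adjusted p = 0.72). Both Ube2c and Tpx2 overlapped between genotypes. Bub1b, a spindle checkpoint kinase, went the other way, with 9.52 to 13.3 CPM in KO and 7.05 to 9.21 CPM in WT libraries (0.36, SE 0.17, edgeR adjusted p = 0.76), where 1.78% of all genes had all KO above all WT libraries.

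The other named members overlapped between genotypes in PAX6-TBR2- cells. KO libraries measured 73.7, 59.0, 50.2 and 59.9 CPM for Mki67, 26.2, 19.5, 14.6 and 18.3 for Top2a, 12.1, 9.17, 6.27 and 11.2 for Pcna and 14.0, 17.9, 13.2 and 19.3 for Mcm2. Ccnd2 measured 98.9, 122, 96.0 and 119 CPM, Cdkn1b 99.8, 108, 103 and 106 CPM and Cdkn1c 29.8, 32.3, 34.1 and 47.1 CPM. Their log2 fold changes were 0.18 (SE 0.15), -0.025 (SE 0.092) and 0.080 (SE 0.16). All 10 interneuron markers tested had a log2 fold change above 0 (median 0.39, none passing). Their sum ranged from 476 to 1280 CPM in WT and from 672 to 1534 CPM in KO libraries, and their part in the members' values was not tested.

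Each member was also tested for whether its genotype effect differed from one population to another, and none passed. Between TBR2+ and PAX6+ cells edgeR called 0.612% of genes, and the mitotic members had a median difference of -0.43, with 23 of 26 below 0. That median was -0.27 without WT TBR2+ replicate 1 or KO TBR2+ replicate 4, and -0.63 and -0.62 without WT TBR2+ replicate 4 and KO TBR2+ replicate 1. An unadjusted p under 0.05 was reached there by 6 of the 50 members, against 7.43% of all genes tested. All 6 had the more negative value in TBR2+ cells: Birc5, Ccnd2, Hmmr, Mcm10, Mcm5 and Rrm2. The difference for Cdkn1c was -0.25 (SE 0.36, edgeR adjusted p = 0.9999) and that for Mcm5 -0.58 (SE 0.23, edgeR adjusted p = 0.46). Between PAX6-TBR2- and TBR2+ cells 0.051% of genes were called and the mitotic median difference was 0.26, which single libraries left out moved between 0.12 (without KO TBR2+ replicate 4) and 0.51 (without KO TBR2+ replicate 1). Between PAX6-TBR2- and PAX6+ cells 0.775% of genes were called and the mitotic median difference was -0.15, which moved between -0.27 (without KO PAX6-TBR2- replicate 1) and 0.026 (without WT PAX6-TBR2- replicate 4). An unadjusted p under 0.05 was reached by 4 members in each of these comparisons, or 8.0% of the members. The share of all genes was 4.94% in the former and 7.07% in the latter, near that of the members. These were Bub1b, Ccnd1, Tyms and Cdkn1c in the former, and Bub1b, Cdc6, Cdk1 and Cdkn1c in the latter. For Cdkn1c the effect in PAX6-TBR2- cells minus that in TBR2+ cells was -0.62 (SE 0.26, edgeR adjusted p = 0.97). DESeq2 and limma-voom called no member in any of the 3.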

How the data were processed

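Cells sorted from cerebral cortex at E15.5 gave 24 RNA-seq libraries. The authors deposited raw counts per Ensembl gene for each library on 2 lanes. FastQC, cutadapt, STAR, featureCounts and DESeq2 are named in the submitters' processing notes, with genome build mm10. No version, annotation release or strandedness is stated there. cDNA was amplified before library preparation, per the labels' protocols, without molecular identifiers.

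Lanes were summed per library. Genes were filtered with filterByExpr, scaled by TMM and tested with edgeR 4.0.16 quasi-likelihood F tests in R 4.3.3. Benjamini-Hochberg adjustment ran over all genes tested, and an adjusted p under 0.05 counted as a call. Genotypes were compared within the 8 libraries of a population. WT populations and differences of genotype effects were tested in fits of 16 libraries. Alternatives used DESeq2 1.42.0, limma 3.58.1 and other settings. Identifiers with no symbol in GENCODE M21 held 0.199% to 0.353% of a library's counts. On simulated counts, 95.1% of genes changed by 1 on the log2 scale were recovered for the PAX6+ genotype comparison (13976 genes in that step), and 58.4% for the difference of effects between TBR2+ and PAX6+ cells (14364 genes). The members' own values in the PAX6+ genotype comparison were smaller, from -0.374 to 0.943. The TBR2+ genotype comparison was not simulated. These shares therefore do not describe how often effects of the observed size would be called.

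The authors also deposited normalized values (signal: counts divided by a library factor). Whole reads were recovered from 100% of these values (tolerance 0.000001). They equalled the raw counts in all 8 PAX6+ libraries and in 1 other, and were higher than the raw counts elsewhere, so raw counts were used and recovered reads served as an alternative, chosen after seeing the data. On them, edgeR called 232 genes in TBR2+ and 1 in PAX6-TBR2- cells.

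Same-numbered WT and KO PAX6+ libraries correlated in their deviations from the group means (0.196, 0.179, 0.159 and 0.361), which set the replicate block beside that comparison. Members and lists were chosen with earlier results of these data known. Members given in full were 12 chosen by name plus the 3 of smallest p in each genotype comparison, and Ccna2 in PAX6+ cells, added after its values were seen; others are given by range and count.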

Additional observations from a re-analysis of the deposited data

Results flagged for a closer look

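In 9 of 150 checks of 4 libraries, 1 library stood apart from the other 3 by Dixon's criterion at 95%, which chance gives in about 1 of 20. Pcna measured 98.8 CPM in WT PAX6+ replicate 4, against 68.5 to 71.7 in the others. KO PAX6+ replicate 2 stood apart for Ccnd2 (702.1 CPM, against 772 to 784), Cdkn1c (7.05 CPM, against 3.06 to 3.43), Mcm5 (71.5 CPM, against 84.9 to 86.7) and the summed G1/S regulators (784 CPM, against 866 to 872). Cdkn1a measured 3.96 CPM in KO PAX6+ replicate 3, against 1.28 to 1.69. Mcm5 measured 16.8 CPM in KO TBR2+ replicate 1, against 9.86 to 10.6, and E2f1 8.85 CPM in KO PAX6-TBR2- replicate 3, against 4.66 to 5.08. The total of WT PAX6-TBR2- replicate 4 was 30.03 M counts, against 4.95 to 8.64 M in the other WT libraries of that population.

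The genotype effect on Cdk6, which is not among the 50 genes, differed between TBR2+ and PAX6+ cells by -0.92 on the log2 scale. Over 24 alternatives this difference ranged from -1.02 to -0.72 and was not called in 13, with edgeR adjusted p of up to 0.286.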

How the results depend on the processing

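Between WT populations, 48 members were called from PAX6+ to TBR2+ and from PAX6+ to PAX6-TBR2- cells under every alternative, with 48 to 48 when single libraries were left out. From TBR2+ to PAX6-TBR2- cells 43 to 46 were called, and 42 to 46 without single libraries. Between genotypes the number of members called moved from 0 to 5 in PAX6+ cells with the replicate block, and to 3 with DESeq2, 20 with no filter and 19 with the replicate block (14 of them mitotic) in TBR2+ cells. In TBR2+ and PAX6-TBR2- cells the replicate numbers did not pair the libraries by the rule used (same-number correlations of 0.408, 0.059, 0.046 and 0.362 in TBR2+ cells, where each had to pass 0.1), and not every library correlated best with its own number. Leaving out single libraries gave 0 to 1 in PAX6+ cells (Ndc80, without KO replicate 4), 0 to 6 in TBR2+ cells and 0 to 0 among neurons (PAX6-TBR2-). For the difference between TBR2+ and PAX6+ effects, no filter gave 2 members (Birc5 and Hmmr), and leaving out libraries gave 0 to 0 for all 3 differences.

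Counts over all genes moved by more than 1.5 times as follows. They went from 517 to 1045 in PAX6+ cells with the block; from 223 to 352 (DESeq2), 728 (no filter), 720 (block) and 121 to 420 (libraries left out) in TBR2+ cells; and from 1 to 24, 38, 153 and 1 to 3 in PAX6-TBR2- cells under the same settings, with 6 in a fit of all 24 libraries. The differences of effects went from 89 to 163 (DESeq2), 329 (no filter), 139 (block) and 71 to 137 (libraries left out) for TBR2+ minus PAX6+, from 7 to 26, 126 and 3 to 10 (DESeq2, no filter, libraries left out) for PAX6-TBR2- minus TBR2+, and from 117 to 219 (no filter) for PAX6-TBR2- minus PAX6+. The log2 ratio of summed replication members, WT PAX6+ over WT TBR2+, was 2.372 without TMM and 2.253 when the sum was replaced by each library's median log2 CPM over the members, which is not the median of their fold changes. The log2 ratio of summed mitotic members, WT PAX6+ over WT TBR2+, was 2.89 without TMM. The cause of these changes was not tested. Low counts limit Cdkn1a, and Cdc6 and Cdk1 in PAX6-TBR2- cells.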
